A study of Mus musculus with 10 samples.

Results

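The RNA of 7 genes, Fos, Fosb, Fosl1, Fosl2, Jun, Junb and Jund, was followed in mouse naive CD4 T cells. They are 7 of the 45321 genes in the data, named by symbol, and were chosen with earlier results of these data known. All 7 were among the 14417 genes with enough counts to be tested. The cells were sorted as CD4+CD62L+CD69- from the spleens of C57BL/6 mice, whose age and number the labels do not state. All cells were first held for 1 h with the solvent DMSO (vehicle) or with 12.5 µM Compound 10, which the study's design text calls a chemical inhibitor of NFAT:AP-1. They were then left unstimulated or were given 10 nM PMA and 1 µM ionomycin for 2 h. PMA switches on protein kinase C and ionomycin lets calcium into the cell, so the T cell receptor itself is bypassed. Of the 10 libraries, 3 were of unstimulated vehicle cells, 2 of unstimulated Compound 10 cells, 2 of stimulated vehicle cells and 3 of stimulated Compound 10 cells. Whether replicates stem from different mice or cultures is not stated, so a p-value here measures the spread between libraries alone, which may be technical.

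AP-1 is a family of dimeric transcription factors that bind DNA through a basic region and a leucine zipper. Fos proteins (Fos, Fosb, Fosl1, also called Fra-1, and Fosl2, also called Fra-2) cannot form stable dimers with each other and pair with a Jun protein, whereas Jun proteins (Jun, Junb, Jund) can also pair among themselves. In T cells AP-1 carries the signal of protein kinase C and the MAP kinases, and it binds beside the calcium-regulated factor NFAT at composite sites in cytokine genes such as Il2. Fos, Fosb, Jun and Junb are classic immediate-early genes, Fosl1 and Fosl2 usually follow later, and Jund is described in many cells as expressed without a stimulus.

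The genes lie at Fos chr12:85473890-85477273 (plus strand), Fosb chr7:19302696-19310051 (minus), Fosl1 chr19:5447547-5455946 (plus), Fosl2 chr5:32135801-32157842 (plus), Jun chr4:95049034-95052222 (minus), Junb chr8:84974484-84978718 (minus) and Jund chr8:70698949-70700616 (plus), on mm10 in the GENCODE M21 annotation. RefSeq (GRCm38.p6) gave the 250 bases before its own start of 6 of the 7 genes. The RefSeq starts of Fosl2 and Fosb lie inside the gene spans above (offsets of -671 and -6 bases), so the Fosl2 window is within its gene. Those of Junb and Jund lie upstream of the spans (30 and 1210 bases). Those of Fos, Fosb, Jun and Junb are shown because the RNA of these 4 immediate-early genes rose together with stimulation. Each is written 5′ to 3′ in the direction of its gene and ends 1 base before the start. Capitals mark TGACG (the core of a cyclic AMP response element), TGACATCA (the site known in the Jun promoter for Jun with ATF proteins) and TATAAA (the core promoter motif bound by TBP).
Fos promoter, chr12:85473640-85473889, plus strand: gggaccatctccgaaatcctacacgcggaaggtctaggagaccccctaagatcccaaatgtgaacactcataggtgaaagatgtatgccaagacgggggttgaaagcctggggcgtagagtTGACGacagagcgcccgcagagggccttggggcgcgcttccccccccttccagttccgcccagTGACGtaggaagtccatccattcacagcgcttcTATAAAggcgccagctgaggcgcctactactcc
Fosb promoter, chr7:19310046-19310295, minus strand: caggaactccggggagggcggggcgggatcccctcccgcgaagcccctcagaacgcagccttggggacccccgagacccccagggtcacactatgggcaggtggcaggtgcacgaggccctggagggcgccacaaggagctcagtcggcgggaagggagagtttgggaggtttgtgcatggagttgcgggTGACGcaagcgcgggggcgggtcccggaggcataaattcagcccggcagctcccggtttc
Jun promoter, chr4:95052223-95052472, minus strand: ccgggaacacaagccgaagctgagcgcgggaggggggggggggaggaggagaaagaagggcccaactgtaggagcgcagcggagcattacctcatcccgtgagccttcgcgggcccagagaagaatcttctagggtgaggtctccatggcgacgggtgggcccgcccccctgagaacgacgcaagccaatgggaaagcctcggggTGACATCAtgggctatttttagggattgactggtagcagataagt
Junb promoter, chr8:84978749-84978998, minus strand: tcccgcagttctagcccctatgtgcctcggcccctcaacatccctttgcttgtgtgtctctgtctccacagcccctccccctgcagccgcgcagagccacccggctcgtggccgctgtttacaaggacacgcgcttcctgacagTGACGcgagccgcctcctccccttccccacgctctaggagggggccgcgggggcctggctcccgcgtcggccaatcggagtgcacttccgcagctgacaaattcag
The Fos window held TGACG at -129 to -125 and at -66 to -62 and TATAAA at -33 to -28, counted back from the start. Fosb held TGACG at -60 to -56 and Junb at -106 to -102. Among all 32851 RefSeq windows of this length, searched on both strands, 17.8% held TGACG and 12.4% held TATAAA. Jun held TGACATCA at -45 to -38, which 2.93% of windows held, and it was the only 1 of the 6 windows with the NFAT core letters GGAAA (55.6% of windows). The AP-1 letters TGANTCA (6.75% of windows), the whole element TGACGTCA (1.55%, which contains TGACG) and a CArG box, the serum response factor motif (1.47%), were in none of the 6 windows. These are letter matches in a short window only.

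The messages of this family are known for rapid decay through AU-rich elements, which the motif ATTTA marks. Of 44761 annotated mouse transcripts with a 3′ UTR, 56% held at least 1 ATTTA there, with a median of 0.886 per kb. All 7 main coding transcripts held at least 1. Fosl2 held 8 in a 3′ UTR of 4653 bases, and 7.15% of transcripts held as many. Fos and Jun held 4 each (20.5% of transcripts) in 815 and 1233 bases, and Junb held 2 in 485 bases. By density Fos (4.91 per kb), Junb (4.12) and Jun (3.24) stood above Jund (1.88), Fosl2 (1.72), Fosl1 (1.57) and Fosb (0.466). The first 30-base stretch of the 3′ UTR with the most copies of the motif is shown for the 3 genes with 4 or more, with ATTTA in capitals.
Fos 3′ UTR, chr12:85477090-85477119, plus strand: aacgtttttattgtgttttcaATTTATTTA
Fosl2 3′ UTR, chr5:32156858-32156887, plus strand: agaagaaattgacATTTAttttattATTTA
Jun 3′ UTR, chr4:95049210-95049239, minus strand: gtgatcATTTAtaatcataggaaagATTTA
The copies overlap in the Fos stretch and are separate in those of Fosl2 and Jun.

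The libraries held 10694591 to 33486259 estimated counts. The 10 genes of T cell identity, such as Cd3e, Cd4 and Lck, summed to 2305 to 2984 CPM (counts relative to the library total) in every library. All marker CPM in this paragraph are without further scaling. The CPM of the 7 genes below are also scaled by edgeR's TMM factors. Markers of B cells (4.08 to 12.8 CPM), CD8 T cells (1.98 to 8.60), NK cells (0.752 to 4.88) and erythroid cells (0 to 0.674) were low, with Ncr1 at 0 counts throughout. Myeloid markers, with S100a9 at 0 counts throughout, summed to 1.76 to 32.1 CPM, of which Cd68 alone took 1.51 to 29.9. Regulatory T cell markers summed to 64.4 to 195 CPM, of which Il2ra took 4.63 to 143 and Foxp3 1.83 to 6.59. Il2ra rose with stimulation under vehicle (log2 fold change 5.14). Memory or effector markers summed to 69.6 to 259 CPM. In bulk RNA fewer cells of a type and less RNA per cell cannot be told apart. The third unstimulated vehicle library and the second unstimulated Compound 10 library stood apart from the other unstimulated libraries. They were the deepest (27857586 and 33486259 counts), the short noncoding transcript Fos-202 was listed at 0 in both while it made up 15.1% to 25.5% of Fos TPM elsewhere, and their tables carry the adjacent index numbers 25 and 26. The other tables carry the indices 13, 15, 16, 19 to 22 and 29, and no label says what an index stands for.

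Per unit of length, Junb was the most abundant member in each of the 10 libraries and Fos the next. In deposited TPM, a unit that corrects for transcript length, unstimulated vehicle cells held Junb at 784 ± 78.6 (SD, n = 3), Fos at 147 ± 54.4, Jun at 66.7 ± 20.9, Fosl2 at 23.8 ± 6.02, Fosb at 13.3 ± 6.85, Jund at 8.63 ± 4.76 and Fosl1 at 1.40 ± 0.406. Of the neighbours in that order, Fosl2 and Fosb, and Fosb and Jund, overlapped between libraries, and Fos and Jun were separated only by 83.7 against 82.8. After stimulation under vehicle the order was Junb at 1039 ± 150 (SD, n = 2), Fos at 790 ± 121, Fosl2 at 169 ± 13.2, Jun at 116 ± 18.8, Fosb at 93.6 ± 9.58, Fosl1 at 34.1 ± 3.82 and Jund at 10.1 ± 2.65, with no overlap between neighbours. Fosl2 thus stood above Jun and Fosl1 above Jund after stimulation, the reverse of the order at rest. The rank of Fosl2 includes its noncoding transcripts, and its coding transcript alone (74.0 and 69.6 TPM in stimulated vehicle libraries) stood below Jun and Fosb. With Compound 10 the stimulated order was the same, from Junb at 2525 ± 120 (SD, n = 3) and Fos at 1254 ± 76.4 down to Jund at 14.2 ± 3.03. There too the coding Fosl2 transcript alone (60.9, 63.1 and 50.5 TPM) stood below Jun and Fosb.

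**Figure D1:**
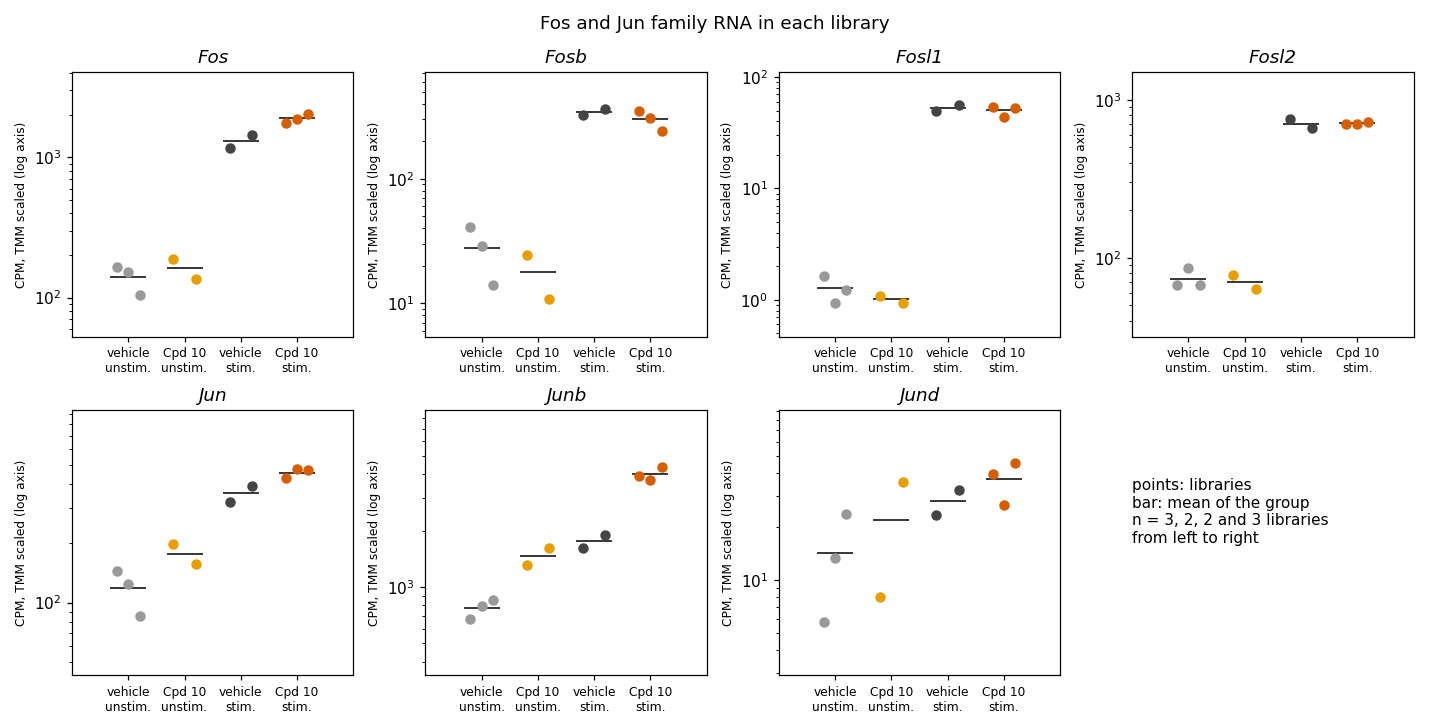
RNA level of each of the 7 genes by library, in CPM with TMM factors on a log axis; each point is a library, each bar the mean of its group, and the groups from left to right are unstimulated vehicle, unstimulated Compound 10, stimulated vehicle and stimulated Compound 10. Within each treatment every gene but Jund separates stimulated from unstimulated libraries, and Junb is higher with Compound 10 in both states.

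The first comparison asked how stimulation changed the family. Under vehicle 6 of the 7 genes rose (edgeR's quasi-likelihood test, Benjamini-Hochberg adjusted over all 14417 genes, adjusted p under 0.05), against 19.5% of all genes tested, and Jund did not pass. With Compound 10 the same 6 genes rose, against 12.8% of all genes. In each state of treatment these 6 were higher in every stimulated than in any unstimulated library, as were 30.2% of all genes under vehicle and 24.6% with Compound 10. The median log2 fold change of the 7 genes was 3.20 under vehicle and 3.34 with Compound 10, where the median of all genes was -0.06 and -0.01. The stimulation effects under the 2 treatments draw on different libraries.

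Fos encodes the prototype Fos protein. It measured 166, 153 and 105 CPM in unstimulated vehicle libraries and 1163 and 1440 CPM in stimulated ones. In compound-treated cells it went from 189 and 136 CPM to 1761, 1889 and 2035 CPM. Every stimulated library was several times above every unstimulated one, with log2 fold changes of 3.20 ± 0.22 (SE; adjusted p = 8.30e-07), or 9.22-fold, under vehicle and 3.55 ± 0.25 (adjusted p = 3.06e-06), or 11.7-fold, with the compound.

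Fosb, a second immediate-early Fos protein, measured 40.6, 28.8 and 14.1 CPM in unstimulated vehicle libraries and 326 and 360 CPM after stimulation. Compound-treated libraries went from 24.6 and 10.8 CPM to 347, 306 and 242 CPM. The lowest resting level of each treatment was in the library of index 25 or 26, and no unstimulated library reached the stimulated range. The log2 fold changes were 3.63 ± 0.41 (adjusted p = 3.91e-05) under vehicle and 4.10 ± 0.47 (adjusted p = 0.000122) with the compound.

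Fosl1 was close to absent at rest and had the largest fold of the 7. Its levels were 1.64, 0.932 and 1.23 CPM in unstimulated vehicle libraries and 49.8 and 55.8 CPM after stimulation, and with Compound 10 it went from 1.09 and 0.929 to 53.7, 44.3 and 52.8 CPM. This was a log2 fold change of 5.39 ± 0.23 (adjusted p = 4.00e-08), or 41.8-fold, under vehicle and 5.66 ± 0.28 (adjusted p = 3.16e-07), or 50.4-fold, with the compound. The gene Ccdc85b overlaps Fosl1 on the other strand, and the kit does not mark strand. Ccdc85b stayed between 35.2 and 59.3 TPM in all 10 libraries.

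Fosl2 ranged from 660 to 752 CPM over the 5 stimulated libraries of both treatments. It measured 67.3, 86.1 and 66.9 CPM in unstimulated vehicle libraries and 752 and 660 CPM after stimulation. Under the compound it went from 77.2 and 63.1 CPM to 707, 701 and 725 CPM. The log2 fold changes were 3.27 ± 0.16 (adjusted p = 9.85e-08), or 9.62-fold, and 3.34 ± 0.18 (adjusted p = 7.13e-07), or 10.1-fold.

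The Jun family moved less. Jun, the prototype Jun protein, measured 145, 124 and 85.8 CPM in unstimulated vehicle libraries and 325 and 390 CPM after stimulation, a log2 fold change of 1.60 ± 0.21 (adjusted p = 0.000106). With Compound 10 it went from 197 and 157 CPM to 428, 473 and 468 CPM, a change of 1.36 ± 0.22 (adjusted p = 0.000925). The antisense gene Junos, which overlaps Jun, held at most 5.30 counts in any library.

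Junb, a Jun protein abundant in T cells, was the member with most RNA at rest and a modest fold. It measured 678, 791 and 851 CPM in unstimulated vehicle libraries and 1613 and 1893 CPM after stimulation, a log2 fold change of 1.18 ± 0.16 (adjusted p = 0.000144), or 2.27-fold. With Compound 10 it went from 1304 and 1623 CPM to 3931, 3717 and 4397 CPM, a change of 1.46 ± 0.17 (adjusted p = 0.000122), or 2.74-fold. The highest unstimulated Compound 10 library (1623 CPM) stood just above the lower stimulated vehicle library (1613 CPM).

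Jund did not pass in either treatment. It measured 5.81, 13.4 and 23.6 CPM in unstimulated vehicle libraries and 23.3 and 32.4 CPM after stimulation, a log2 fold change of 0.96 with a 95% interval from -0.32 to 2.23 (adjusted p = 0.221). Compound-treated libraries measured 8.05 and 35.6 CPM at rest and 39.8, 26.4 and 45.6 CPM after stimulation (0.75 ± 0.59, adjusted p = 0.398). Under vehicle Jund passed with no low-count filter (0.85, adjusted p = 0.00338) and with the index set as a term (1.52, adjusted p = 0.0106). It also passed there without the third unstimulated vehicle library (1.53, adjusted p = 0.0473). With the compound it passed with no filter (0.67, adjusted p = 0.0434) and with the index set as a term (1.28, adjusted p = 0.0410). Without the second unstimulated Compound 10 library the value was 2.18, with a single library left in that group. Within index sets Jund differed by 1.98 and 1.27 under vehicle and by 1.70 and 0.35 with the compound. The unstimulated libraries of index 25 and 26 held the highest resting level of each treatment. Leaving out these 2 libraries, a choice made after seeing the data that removes the highest resting levels and so raises the fold, gave 1.53 under vehicle and 2.18 with the compound, past the threshold. The single unstimulated compound library that remained was assumed to vary like the other groups, and these values do not add support for a rise. Over all alternatives the adjusted p ran from 0.00326 to 0.791 under vehicle and from 0.00388 to 0.961 with the compound. The antisense gene Gm11175 overlaps Jund and held 9.51 to 140 estimated counts, so the reads of the 2 genes cannot be told apart. The deposited Jund transcript is 1210 bases longer than that of GENCODE M21, and the RefSeq start lies 1210 bases upstream of the GENCODE start.

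**Figure D2:**
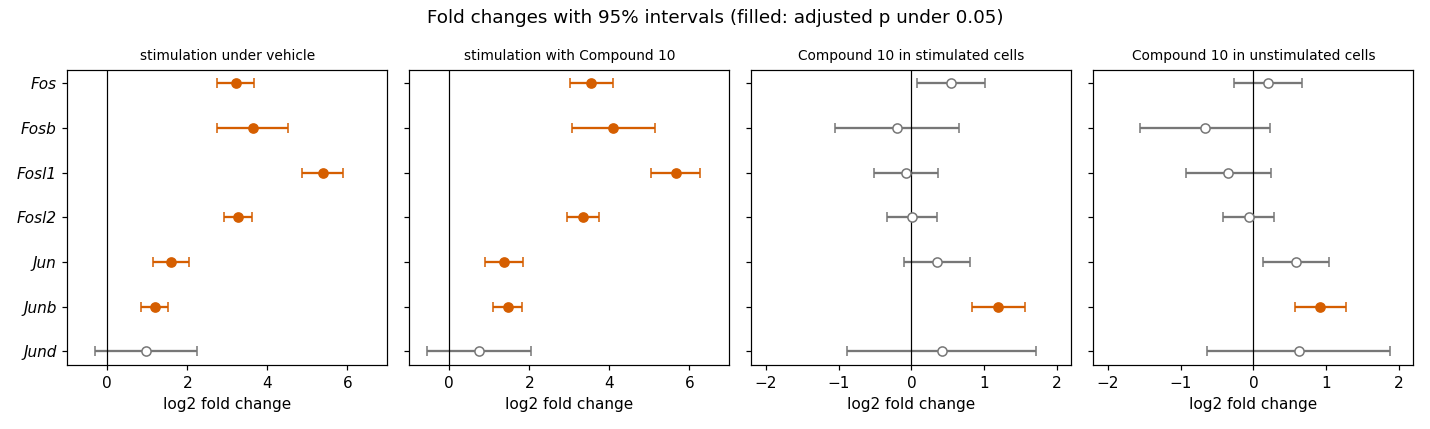
Log2 fold change of each gene in 4 comparisons (panels), with 95% intervals; filled points have an adjusted p under 0.05 and open points do not. The stimulation panels run from Jund at 0.96 and 0.75 to Fosl1 at 5.39 and 5.66, and Junb is the single filled point in each Compound 10 panel, at 1.20 and 0.92.

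Stimulation folds depend on how libraries are scaled. With no scaling beyond library totals the median of all genes moved to -0.83 under vehicle and -0.60 with Compound 10, and the same 6 of 7 genes still passed as higher, Jun at 0.82 and Junb at 0.41 under vehicle.

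The second comparison asked what Compound 10 changed in stimulated cells. Of the 7 genes 1, Junb, rose, while 10.4% of all genes tested were called higher, so the share of called members was near that of all genes. Junb went from 1613 and 1893 CPM to 3931, 3717 and 4397 CPM, a log2 fold change of 1.20 ± 0.17 (95% interval 0.83 to 1.56; adjusted p = 0.000493), or 2.29-fold. Fos (1163 and 1440 against 1761, 1889 and 2035 CPM) and Jun (325 and 390 against 428, 473 and 468 CPM) were also higher in all 3 compound libraries than in either vehicle library, as were 27.3% of all genes. Their log2 fold changes were 0.54 (0.07 to 1.01; adjusted p = 0.0905) and 0.35 (-0.11 to 0.81; adjusted p = 0.261) and did not pass. When only the 5 stimulated libraries were fitted, both passed, Fos at 0.57 (adjusted p = 0.00659) and Jun at 0.38 (adjusted p = 0.0448). Fos also passed with the index set as a term (0.65, adjusted p = 0.0179), under upper-quartile factors (0.68, adjusted p = 0.0325), with no low-count filter (0.57, adjusted p = 0.0220), without the libraries of index 25 and 26 (0.53, adjusted p = 0.00929) and without the first of them alone (0.54, adjusted p = 0.0296). Over all alternatives the adjusted p ran from 0.00659 to 0.433 for Fos and from 0.0448 to 0.688 for Jun.

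The other 4 genes overlapped between treatments. The interval of the compound's effect ran from -0.34 to 0.36 for Fosl2 (0.01, adjusted p = 0.976), from -0.51 to 0.37 for Fosl1 (-0.07, adjusted p = 0.842), from -1.05 to 0.65 for Fosb (-0.20, adjusted p = 0.768) and from -0.89 to 1.72 for Jund (0.42, adjusted p = 0.673). For Fosl2 and Fosl1 a 2-fold change in either direction lies outside these bounds, and for Fosb and Jund it does not. The median of the 7 genes was 0.35 and that of all genes 0.04. Within sets of neighbouring indices, Junb differed by 1.29 in the libraries of index 15 and 16 and by 0.97 in those of index 21 and 22. Fos differed by 0.60 and 0.39 in these pairs and Jun by 0.40 and 0.28, and the set of index 25 to 29 holds no stimulated vehicle library.

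The third comparison asked what Compound 10 changed at rest. Again 1 of 7 genes, Junb, rose, against 4.65% of all genes called higher, and a single gene does not set the members apart from that share. It measured 678, 791 and 851 CPM under vehicle and 1304 and 1623 CPM with the compound, a log2 fold change of 0.92 ± 0.16 (95% interval 0.57 to 1.27; adjusted p = 0.00708), or 1.89-fold. The call was lost when only the 5 unstimulated libraries were fitted (0.93, adjusted p = 0.0605) and without the second compound library (0.76, adjusted p = 0.0622), the highest adjusted p of all alternatives, where the lowest was 1.49e-05. In the latter the single compound library left at rest was assumed to vary like the other groups. Within index sets Junb differed by 0.72 (19 and 20) and 0.93 (25 and 26), and the set of index 13 to 16 holds no unstimulated compound library. Memory or effector markers, led by Id2 and Il2rb, summed at rest to 69.6 to 74.1 CPM under vehicle and 131 to 142 CPM with the compound. After stimulation they summed to 221 to 259 and 156 to 211 CPM, all without TMM factors. Myeloid markers, likewise without TMM factors, summed to 17.7 to 32.1 and 10.6 to 11.7 CPM at rest. After stimulation they summed to 4.23 to 7.01 and 1.76 to 3.94 CPM. The part of these markers in the Junb result was not tested. The gene Prdx2, which overlaps Junb on the other strand, measured 94.0 to 99.4 TPM under vehicle and 51.6 to 62.3 TPM with the compound at rest.

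Jun was the other gene whose unstimulated groups did not overlap, at 145, 124 and 85.8 against 197 and 157 CPM, as was the case for 18.8% of all genes. Its log2 fold change of 0.58 (0.13 to 1.03; adjusted p = 0.107) did not pass. It passed with the index set as a term (0.63, adjusted p = 0.0313) and with no low-count filter (0.59, adjusted p = 0.0368), and over all alternatives the adjusted p ran from 0.0313 to 0.379. Within index sets Jun differed by 0.67 (19 and 20) and 0.87 (25 and 26). Fos at 0.20 (-0.26 to 0.66), Fosb at -0.67 (-1.57 to 0.23), Fosl1 at -0.34, Fosl2 at -0.07 and Jund at 0.62 did not pass and overlapped between treatments, with adjusted p from 0.364 to 0.850. Fosb passed as lower with no low-count filter (-0.67, adjusted p = 0.0244, within a range over all alternatives of 0.0244 to 0.892). The Jund value turned to -0.25 without the libraries of index 25 and 26 and to -0.82 without the second unstimulated compound library alone. That of Fos turned to -0.06 without the first unstimulated compound library. Each of these fits left a single compound library at rest. The 2 compound comparisons use different libraries, and the median of the 7 genes at rest was 0.20 against 0.00 for all genes.

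The interaction term tested whether stimulation acted differently with and without the compound. It passed for 0 of the 7 genes by edgeR, against 6.63% of all genes in either direction, and 0 of 7 had an unadjusted p under 0.05. DESeq2 and the other alternatives also called 0 of 7, with a lowest adjusted p of 0.185. The estimates ran from -0.23 for Jun to 0.47 for Fosb. For Junb it was 0.28 with a 95% interval of -0.22 to 0.77 (adjusted p = 0.537), so the compound's effect on Junb was not shown to differ between the states, and a difference of up to 0.77 lies within the interval.

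The balance of the pool was described by adding the TPM of the 7 genes. This sum includes the noncoding transcripts of Fos and Fosl2, which raise the share of the Fos family. In stimulated vehicle libraries coding Fos-201 made up 76.2% and 80.6% of Fos TPM, and coding Fosl2-201 made up 41.5% and 43.6% of Fosl2 TPM. The pool held 1017, 1170 and 947 TPM in unstimulated vehicle libraries and 2045 and 2459 TPM in stimulated ones. Under Compound 10 the pool held 1659 and 1660 TPM at rest and 4062, 4340 and 4416 TPM after stimulation. The 4 groups did not overlap. TPM is relative to the rest of each library and carries no TMM factor.

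The Fos family took 21.9%, 19% and 11.6% of this pool in unstimulated vehicle libraries and 49.0% and 47.7% in stimulated ones. Under Compound 10 the family took 14.5% and 7.72% at rest and 36.6%, 37.9% and 36.0% after stimulation. The lowest resting share of each treatment was in the library of index 25 or 26, where Fos-202 was listed at 0. After stimulation the share was thus 48.3% ± 0.900 (SD, n = 2) under vehicle and 36.9% ± 0.978 (SD, n = 3) with the compound, without overlap, whereas at rest the treatments overlapped. Junb alone took 45.6% and 46.6% of the stimulated vehicle pool and 59.5%, 57.8% and 60.1% of the stimulated compound pool. In stimulated cells the summed Fos family was at the same time higher in TPM with the compound, led by Fos at 1167 to 1312 against 705 to 876 TPM. The mean share over the 5 stimulated libraries was 26.5 percentage points above that over the 5 unstimulated libraries, which hold the treatments in unequal numbers. Averaged over the 2 states, the difference between Compound 10 and vehicle was -8.94 points. These shares follow from the levels above and are given without a test.

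**Figure D3:**
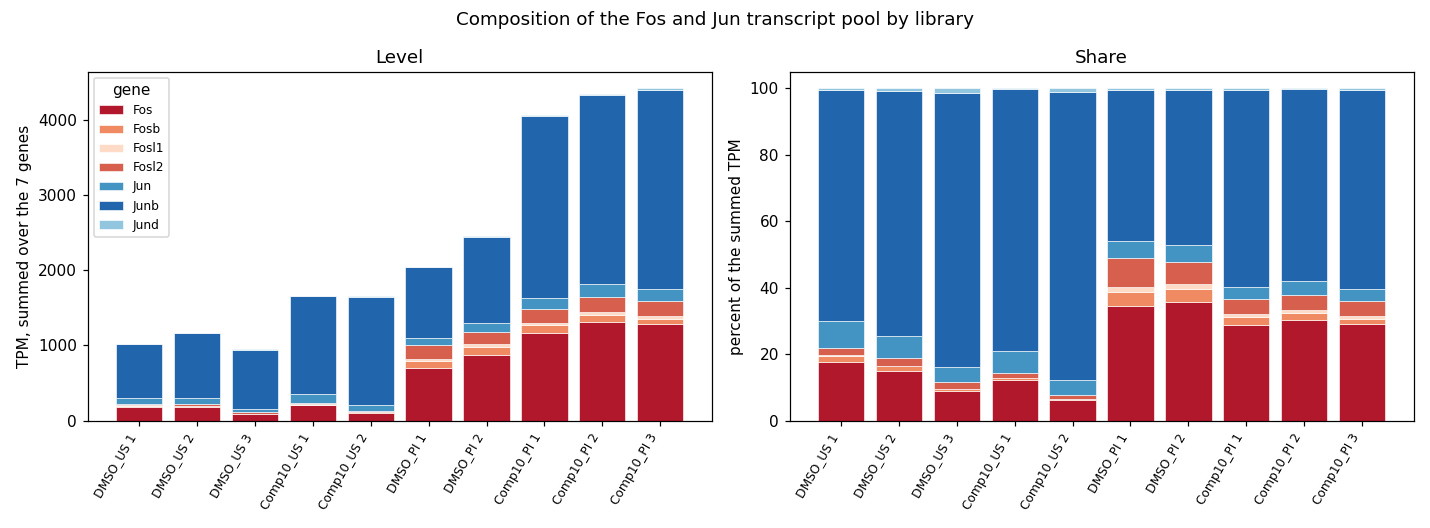
Summed TPM of the 7 genes in each library (left) and each gene's percent of that sum (right), with the Fos family in reds at the bottom and the Jun family in blues above; DMSO is vehicle, Comp10 Compound 10, US unstimulated and PI stimulated. The sum ranges from 947 to 4416 TPM, and the red part is 47.7% to 49.0% in stimulated vehicle libraries and 36.0% to 37.9% in stimulated Compound 10 libraries.

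Fos and Fosl2 are the members with more than 1 transcript in the tables, and the proportions of the Fosl2 transcripts moved with both treatment and stimulation. Its 3 transcripts are the coding Fosl2-201 and the pair Fosl2-202 and Fosl2-203, which the annotation calls retained introns. The coding form took 65.3%, 60.2% and 67.0% of Fosl2 TPM in unstimulated vehicle libraries and 41.5% and 43.6% in stimulated ones. With Compound 10 it took 57.3% and 54.8% at rest and 32.8%, 30.5% and 24.4% after stimulation. In both treatments the coding share was lower in every stimulated library, and in both states lower in every compound library.

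Fosl2-203 took 0.694% to 4.08% of Fosl2 TPM in the 5 unstimulated libraries and 25.4% to 31.5% in the 5 stimulated ones. Fosl2-202 took 27.3% and 27.2% of it in stimulated vehicle libraries and 41.8%, 43.3% and 44.0% in stimulated compound libraries. In level, coding Fosl2-201 measured 74.0 and 69.6 TPM in stimulated vehicle libraries and 60.9, 63.1 and 50.5 TPM with the compound. Fosl2-202 measured 48.7 and 43.5 TPM against 77.6, 89.6 and 91.0 TPM. The near-equal Fosl2 totals of the 2 stimulated groups therefore held different mixtures of transcripts. Counting protein-coding transcripts alone, the compound's effect on Fosl2 in stimulated cells was -0.40 ± 0.16 (adjusted p = 0.0969) in place of 0.01. Transcript shares rest on how kallisto divides shared reads, were picked out after the values were seen and were not tested.

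**Figure D4:**
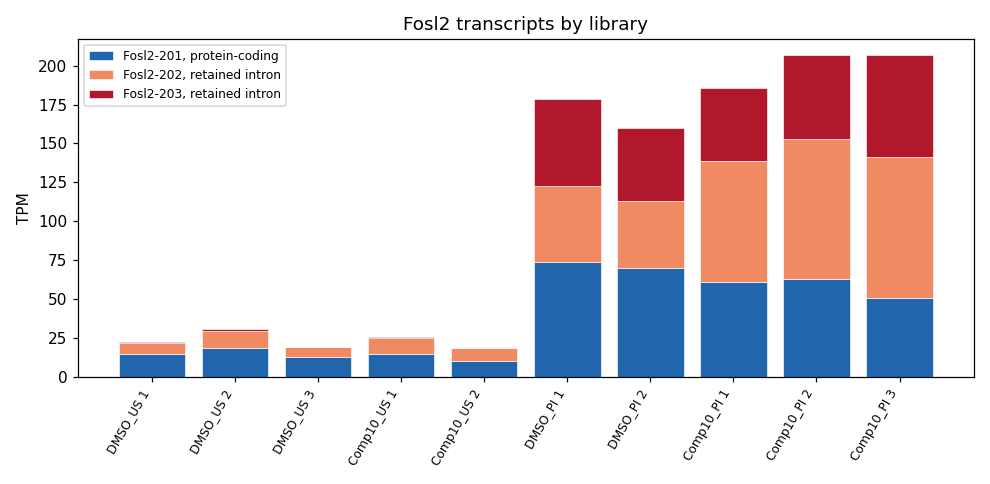
TPM of the 3 Fosl2 transcripts in each library, stacked, with the coding Fosl2-201 in blue and the 2 retained-intron transcripts in orange and red; DMSO is vehicle, Comp10 Compound 10, US unstimulated and PI stimulated. Fosl2-203 (red) measures at most 1.25 TPM in unstimulated and at least 46.7 TPM in stimulated libraries, and Fosl2-202 (orange) reaches 77.6 to 91.0 TPM in stimulated Compound 10 libraries.

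The pathway around the family was read from lists of other genes, each given by the members called higher and lower. Of all 14417 genes, stimulation under vehicle raised 19.5% and lowered 19.4%, and with Compound 10 it raised 12.8% and lowered 13.7%. The compound raised 10.4% and lowered 12.8% in stimulated cells, and at rest it raised 4.65% and lowered 3.78%. A list near these shares is not set apart from other genes by its count. Of 23 kinases upstream of AP-1, stimulation under vehicle raised 8 and lowered 1, and with Compound 10 it raised 5 and lowered 0, against 19.5% and 12.8% of all genes raised. In stimulated cells 4 were higher and 3 lower with the compound (median -0.10), against 10.4% and 12.8% of all genes. Map2k3, a p38 activator, rose with stimulation by 3.63 ± 0.20 and was lower with the compound at -1.50 ± 0.19 (adjusted p = 0.000281). Map2k4, an activator of JNK, which phosphorylates Jun, was lower at -0.91 ± 0.13, and Araf, a RAF kinase, was higher at 0.98 ± 0.18.

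Of 15 tested factors that act at Fos and Jun promoters, 7 rose and 1 fell with stimulation under vehicle, among them Elk4, a partner of serum response factor, at 1.22 ± 0.14, against 19.5% of all genes raised and 19.4% lowered. In stimulated cells 2 were higher and 1 lower with the compound, near the 10.4% and 12.8% of all genes. Creb1, the factor that binds cyclic AMP response elements, was higher at 1.10 ± 0.15 (adjusted p = 0.000444). At rest 0 were higher and 1 lower, against 4.65% and 3.78% of all genes. The lower gene was Mrtfb, a coactivator of serum response factor, at -1.45 ± 0.32.

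Of 13 other tested leucine zipper partners, 8 rose and 0 fell with stimulation under vehicle (median 1.49), against 19.5% and 19.4% of all genes, including Atf3 at 4.39 ± 0.46 and Maff, a small Maf protein, at 3.60 ± 0.23. In stimulated cells 2 were higher and 1 lower with Compound 10, near the 10.4% and 12.8% of all genes, namely Maff at 0.69 ± 0.22, Ddit3, a stress-induced factor, at 0.65 ± 0.20 and Mafk at -0.59 ± 0.19. At rest 2 were higher and 1 lower, against 4.65% and 3.78% of all genes. These were Nfil3 at 1.35 ± 0.22 (adjusted p = 0.00579), Atf4 at 0.77 ± 0.19 and Atf3 at -2.23 ± 0.50 (adjusted p = 0.0237).

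Of 17 genes of Fos and Jun RNA and protein turnover, 7 rose and 1 fell with stimulation under vehicle, against 19.5% and 19.4% of all genes. In stimulated cells 2 were higher and 5 lower with Compound 10 (median -0.21), against 10.4% and 12.8% of all genes. Zfp36, which encodes tristetraprolin, a protein that binds AU-rich elements and speeds decay, was higher at 1.45 ± 0.23 (adjusted p = 0.00105), and at rest at 1.26 ± 0.21 (adjusted p = 0.00692). Its relative Zfp36l1 was lower in stimulated cells at -1.23 ± 0.14 (adjusted p = 0.000192). Trib1, an adaptor of the ubiquitin ligase Cop1, was lower at -1.23 ± 0.20. Both differed in the interaction as well, at -1.27 ± 0.21 (adjusted p = 0.00620) and -1.49 ± 0.31 (adjusted p = 0.0186).

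Of 12 genes of NFAT and calcineurin, 3 rose and 3 fell with stimulation under vehicle, near the 19.5% and 19.4% of all genes. In stimulated cells 3 were higher and 1 lower with the compound, against 10.4% and 12.8% of all genes. Nfatc1 rose under vehicle by 3.70 ± 0.20 and was lower with the compound at -1.42 ± 0.19 (adjusted p = 0.000400). Of 8 tested genes with known composite sites for NFAT and AP-1, all 8 rose with stimulation under vehicle (median 6.92) and all 8 with the compound (7.24). Stimulation raised 19.5% of all genes under vehicle and 12.8% with the compound. In stimulated cells 4 were lower and 2 higher with the compound, against 12.8% and 10.4% of all genes, with Il2 at -3.10 ± 0.23, Il2ra at -2.06 ± 0.23 and Fasl at -1.24 ± 0.18. Junb was thus higher, and the other 6 Fos and Jun genes did not pass, in the libraries in which Il2 was lower.

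Of 17 other immediate-early genes, 16 rose with stimulation in each treatment (medians 4.19 and 4.31) and 0 fell. Of all genes, 19.5% rose and 19.4% fell under vehicle, and 12.8% rose and 13.7% fell with Compound 10. In stimulated cells 4 were higher and 1 lower with the compound, against 10.4% and 12.8% of all genes. Egr1, a zinc finger factor, was higher at 2.56 ± 0.21 and Btg2, an antiproliferative gene, at 2.02 ± 0.14, while the nuclear receptor gene Nr4a3 was lower at -1.04 ± 0.19. At rest Dusp5 (1.17 ± 0.17) and Dusp6 (1.22 ± 0.18), phosphatases that switch off ERK, were higher and Egr2 (-1.54 ± 0.31) was lower. The compound raised 4.65% and lowered 3.78% of all genes at rest.

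The genes whose log2 CPM followed each member most closely over the 10 libraries were taken from 7463 genes. For Fos they were Nfkbiz (r = 0.997), Plk3 (0.995) and Tnf (0.994), and for Fosb Gtf2b (0.993), Traf1 (0.993) and Tagap (0.992). For Fosl1 they were Nr4a1 (0.998), Hsph1 (0.998) and Egr3 (0.997), and for Fosl2 Nfkbie (0.998), Nfkbid (0.997) and Myc (0.996). Jun was followed by Dusp4 (0.990), Pitrm1 (0.989) and Dusp6 (0.988), Junb by Sh2d2a (0.991), Limd2 (0.991) and Xbp1 (0.988), and Jund by Tcf7l2 (0.963), Fbxw7 (0.958) and Ube2s (0.957). The 10 libraries share 4 groups split mainly by stimulation, so these values are a description of likeness over the groups.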

How the data were processed

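RNA libraries of 10 samples were made from total RNA with a Clontech SMART-seq kit, per the labels' protocols; this kit does not mark strand. Reads were processed with cutadapt and kallisto for mm10, per the submitters' processing notes; tool versions and the kallisto annotation are not stated there. The estimated counts and TPM values were made by the authors and deposited per transcript, per the file headers, with transcript lengths beside them. Transcripts were matched by Ensembl identifier to GENCODE M21 genes (108214 of 109617; the other 1403 held 0.507% to 0.671% of counts and were not used). Gene sums of these estimates were rounded to whole numbers. The fit of all 10 libraries used edgeR 4.0.16 in R 4.3.3, with TMM factors (0.731 to 0.850 stimulated, 1.20 to 1.34 unstimulated), filterByExpr, 1 coefficient per group, the quasi-likelihood F test and Benjamini-Hochberg adjustment over 14417 genes, with calls at 0.05. It was also run on counts simulated from the mean levels and spread of these data, which cannot show that its p-values hold here. No 2 libraries of a group agreed within sampling noise (chi-square per degree of freedom at least 13.7).

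The members and gene lists were chosen with earlier results of these data known. All 7 members are named; from each list up to 3 genes with the smallest adjusted p per comparison could be named; for likeness the 3 highest Pearson r of log2 CPM (prior count 2, average log2 CPM at least 3) were named. Lists are given by counts, without a set test, and the shares of the pool are given without a p-value for the same reason. Alternatives were other scaling factors, DESeq2 1.42.0, no filter, only the groups compared, a replicate or index-set term, protein-coding transcripts, TPM rescaled to totals and leaving out each library; leaving out the libraries of index 25 and 26 was added after seeing the data.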

Additional observations from a re-analysis of the deposited data

How the results depend on the processing

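Over 21 alternatives the 14 called effects of the 7 genes gave 294 values, none of which changed direction and 2 of which lost the call, both of Junb at rest. The 21 effects not called gave 434 values, of which 19 gained a call and 31, in 9 effects, had the opposite sign. The number of the 7 genes called for Compound 10 in stimulated cells went from 1 to 2 under upper-quartile factors, no filter, the index-set term and without the libraries of index 25 and 26, and to 3 with only the groups compared. At rest it went from 1 to 3 with no filter, 0 with only the groups compared and 2 with the index-set term. For stimulation with Compound 10, 3816 genes became 6029 with no scaling. For Compound 10 at rest, 1215 became 1870 (DESeq2), 122 (only the groups compared), 2403 (index-set term), 683 (TPM rescaled) and 598 (without index 25 and 26). For the interaction, 956 became 1649 (DESeq2), 1448 (no filter), 2167 (index-set term) and 490 (TPM rescaled). Leaving out 1 library at a time gave 3568 to 5769 genes for stimulation under vehicle, 2347 to 4370 with Compound 10, 1589 to 3919 and 325 to 1335 for the compound after stimulation and at rest, and 191 to 1332 for the interaction. The lowest counts came without the first stimulated vehicle library (3568, 1589 and 191) and without the second unstimulated Compound 10 library (2347 and 325). It gave 1 to 2 of the 7 genes for the compound after stimulation and 0 to 1 at rest, and a compound difference of -10.6 to -7.25 points in the Fos family share. Upper-quartile factors moved the share of higher calls for Compound 10 in stimulated cells from 44.8% to 57.8%, with the median of all genes at 0.18. Deviations from the group means correlated above 0.1 in 2 of 13 library pairs of the same replicate number (r from -0.28 to 0.33). They did so in 3 of 12 pairs of the same index set (r from -0.05 to 0.46). In a group of 2 libraries the deviations mirror each other, so these counts cannot settle whether the numbers are pairs. The numbers were not taken as pairs. The replicate block gave 1504 interaction calls and called Jund for stimulation under vehicle (1.41, adjusted p = 0.0469). The gene lists were not recounted under the alternatives. The cause of these shifts was not tested. Where a left-out library leaves 1 in its group, that library is assumed to vary like the other groups.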
